A study of Schmidtea mediterranea with 12 samples.

Results

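The planarian intestine was examined for 4 transcripts that the study's annotation matches to human carriers of sugars and sugar derivatives: dd_Smed_v6_6663_0_1 (SLC5A1), dd_Smed_v6_4836_0_1 (SLC2A13), dd_Smed_v6_1048_0_1 (SLC37A2) and dd_Smed_v6_12626_0_1 (SLC35C1), shortened below to dd_6663, dd_4836, dd_1048 and dd_12626. They were picked by identifier from all transcripts of the deposited count table. All 4 passed the low-count filter, which asked for at least 1 CPM (a read count scaled to a common library size) in at least 4 of the 12 libraries and kept 13136 transcripts, or 46.8%. All 4 also stand on a list of intestine-enriched solute carriers that the study drew up from these same libraries, so their direction relative to non-intestine is not independent evidence.

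The libraries came from 4 asexual Schmidtea mediterranea of the clonal line CIW4, which therefore share 1 genotype. They were uninjured adults, 6 to 9 mm long, fed on beef liver paste and then starved for 7 days before fixation. Medial intestine, lateral intestine and tissue outside the intestine (non-intestine) were each cut by laser from stained anterior sections 20 μm thick. Every animal gave 1 library of each tissue, made from 5 ng of total RNA with a kit that primes at the poly(A) tail and reads the 3′ end of each transcript.

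In vertebrates, sugars freed by digestion cross the gut epithelium through membrane carriers of the solute carrier (SLC) families. SLC5A1 is the sodium-glucose cotransporter of the human small intestine, which draws glucose and galactose into the cell along the sodium gradient. SLC2A13 takes up myo-inositol together with protons, and belongs to the family of facilitative glucose transporters. SLC37A2 exchanges glucose 6-phosphate for phosphate across an internal membrane, and SLC35C1 carries GDP-fucose into the Golgi, where glycoproteins are fucosylated. Planarians digest much of their food inside intestinal phagocytes, and no role of these 4 transcripts is measured here.

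The names are those of the best human match in the study's list of solute carriers. The study's table of reciprocal best matches pairs dd_6663 with SLC5A9, another sodium-sugar cotransporter, and pairs human SLC2A13 with a different transcript, dd_10218. Lengths in the table were 2187 bases for dd_6663, 1264 for dd_4836, 1857 for dd_1048 and 1149 for dd_12626. The names SLC5A1, SLC2A13, SLC37A2 and SLC35C1 are used for them from here on, and dd_10218 is named by its identifier.

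Library totals lay between 20227187 and 33296270 counts. The TMM factors that edgeR uses to correct library sizes were between 1.21 and 1.5 in non-intestine, between 0.765 and 0.923 in medial intestine and between 0.794 and 0.985 in lateral intestine. Counts were seen for 17095 to 18700 transcripts in non-intestine libraries, against 10891 to 14698 in the intestinal ones. The 5 intestine markers (hnf-4, gata4/5/6, nkx2.2, apob-1 and apob-2) summed to 5007 to 7807 CPM in medial and 5110 to 6052 CPM in lateral libraries, and to 132 to 148 CPM in non-intestine. Markers of neurons (3 transcripts) summed to 54.2 to 71.6 CPM in non-intestine, to 5.37 to 10.9 CPM in medial and to 4.34 to 15.0 CPM in lateral intestine. PCSK2 made up most of that neural sum. GAD1, another of the 3, had means of 2.70 CPM in medial, 2.40 CPM in lateral and 1.85 CPM in non-intestine, higher than non-intestine in 4 of 4 and 3 of 4 animals.

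SLC5A1 was the transporter with the largest difference between intestine and non-intestine of the 4. In medial intestine its TMM-normalized level was 26.7, 16.7, 19.9 and 24.1 CPM in animals 1 to 4. In lateral intestine it was 13.2, 19.6, 16.9 and 10.2 CPM, and in non-intestine 1.10, 1.23, 1.40 and 1.31 CPM. Every intestinal library lay above every non-intestine library, the closest pair being the lateral library of animal 4 and the non-intestine library of animal 3. The counts behind these values were 241 to 628 in intestinal libraries and 33 to 51 in non-intestine. Means were 21.9 ± 4.43, 15.0 ± 4.16 and 1.26 ± 0.13 CPM (SD, n = 4 each). SLC5A1 rose in medial intestine, with a log2 fold change over non-intestine of 4.11 ± 0.29 (SE) and an FDR of 1.40e-07 by edgeR's quasi-likelihood test, adjusted by Benjamini-Hochberg over all transcripts tested. It also rose in lateral intestine, by 3.57 ± 0.29 on the log2 scale (FDR 5.00e-07, edgeR). Within animals, the medial level was 13.6 to 24.4 times that of non-intestine and the lateral level 7.73 to 16 times. In tissue pieces such as these, a difference in the number of cells of a type and a difference in RNA per cell cannot be told apart.

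SLC37A2 was the most abundant of the 4 transporters in each tissue. Its level was 59.0, 51.1, 67.8 and 64.4 CPM in the medial libraries of animals 1 to 4, and 55.5, 42.9, 45.8 and 45.8 CPM in their lateral libraries. In non-intestine it was 14.7, 18.9, 15.6 and 25.4 CPM. The intestinal and non-intestine libraries again did not overlap, although this transporter was plainly present outside the intestine, with 442 to 784 counts in each non-intestine library. Means were 60.6 ± 7.28 in medial, 47.5 ± 5.52 in lateral and 18.7 ± 4.85 CPM in non-intestine (SD, n = 4 each). SLC37A2 rose by 1.70 ± 0.20 (SE) on the log2 scale in medial intestine (FDR 1.41e-05, edgeR) and by 1.35 ± 0.20 in lateral intestine (FDR 0.000121, edgeR). Within animals the medial level was 2.54 to 4.34 times, and the lateral level 1.80 to 3.79 times, that of non-intestine. With libraries scaled to their total counts instead of by TMM, an alternative chosen after seeing the data, the lateral difference was 0.72 on the log2 scale (FDR 0.00353, edgeR) and no longer exceeded the 2-fold criterion.

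**Figure D1:**
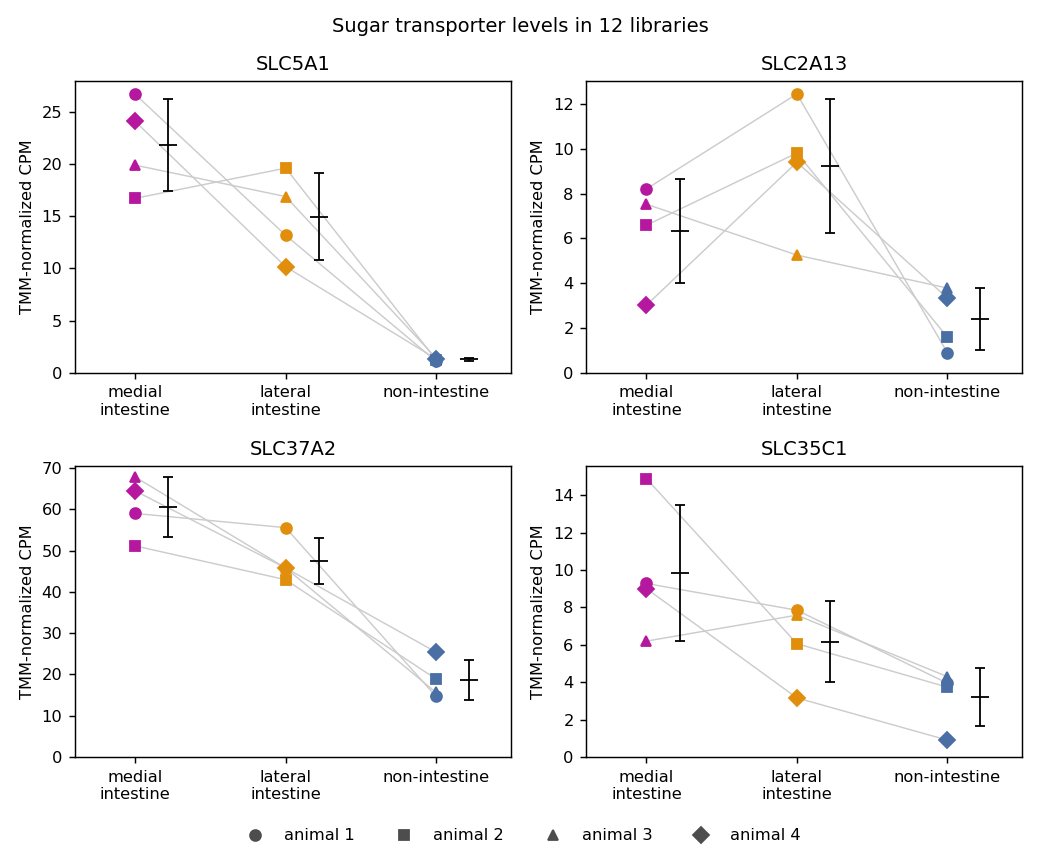
Levels of the 4 sugar transporters in each of the 12 libraries, in TMM-normalized CPM on linear axes that start at 0 and differ between panels. Points are libraries, marker shapes and grey lines identify the animal, and black bars show the mean and SD of 4 animals. SLC5A1 at 10.2 to 26.7 CPM in intestine stands clear of 1.10 to 1.40 CPM in non-intestine, whereas SLC2A13 and SLC35C1 spread widely within each tissue.

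SLC2A13 was low and varied between animals in all tissues. Its medial level was 8.21, 6.59, 7.53 and 3.02 CPM in animals 1 to 4, and its lateral level 12.5, 9.82, 5.25 and 9.41 CPM. In non-intestine it was 0.896, 1.59, 3.78 and 3.34 CPM. The medial library of animal 4 lay below the non-intestine libraries of animals 3 and 4, so these groups overlapped, while the lowest lateral library lay above the highest non-intestine library. The counts ranged from 68 to 273 in intestine and from 27 to 116 in non-intestine. Means were 6.34 ± 2.31 in medial, 9.24 ± 2.98 in lateral and 2.40 ± 1.38 CPM in non-intestine (SD, n = 4 each).

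Neither difference of SLC2A13 from non-intestine met the criteria. The log2 fold change was 1.40 ± 0.51 (SE) for medial intestine (FDR 0.0455, edgeR), with a higher level in 3 of 4 animals. For lateral intestine it was 1.94 ± 0.52 (FDR 0.0103, edgeR), with a higher level in 4 of 4 animals, and thus lay just outside the FDR threshold of 0.01. Ratios within animals differed widely, from 0.904 in animal 4 to 9.16 in animal 1 for medial intestine and from 1.39 in animal 3 to 13.9 in animal 1 for lateral intestine. The lateral difference passed under edgeR's likelihood ratio test (1.94, FDR 0.00127) and DESeq2 (1.78, adjusted p = 0.00329). It also passed without the medial library of animal 4 (1.94, FDR 0.00653, edgeR) or without the lateral library of animal 3 (2.14, FDR 0.00951, edgeR). The other 20 of 24 alternatives left it outside the threshold, among them the animal block (FDR 0.029), total-count scaling (FDR 0.0609) and the fit without animal 1 (FDR 0.0975, edgeR).

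SLC35C1 was likewise a low transcript. Its medial level was 9.28, 14.9, 6.20 and 9.00 CPM in animals 1 to 4, and its lateral level 7.85, 6.06, 7.59 and 3.16 CPM. In non-intestine it was 3.95, 3.74, 4.30 and 0.910 CPM. Medial and non-intestine libraries did not overlap, but the lateral library of animal 4 lay below the non-intestine libraries of the other 3 animals. Means were 9.84 ± 3.64 in medial, 6.17 ± 2.15 in lateral and 3.22 ± 1.56 CPM in non-intestine (SD, n = 4 each). The log2 fold change was 1.61 ± 0.50 (SE) for medial intestine (FDR 0.0218, edgeR) and 0.93 ± 0.49 for lateral intestine (FDR 0.181, edgeR), each with a higher level in 4 of 4 animals. Neither met the criteria, while the likelihood ratio test called the medial difference (1.61, FDR 0.00641, edgeR). The lowest lateral level of SLC35C1 (75 counts) and its lowest non-intestine level (27 counts) both came from animal 4, whose ratio of medial intestine to non-intestine was 9.89, against 1.44 to 3.98 in the other animals. Without its non-intestine library the log2 fold changes were 1.27 (FDR 0.0424) for medial and 0.60 (FDR 0.380) for lateral intestine.

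A difference from non-intestine was called where the FDR lay below 0.01 and the levels differed more than 2-fold. SLC5A1 and SLC37A2 met them in both intestinal regions, so 2 of 4 transporters were called in each. Of all 13136 transcripts tested, 24.3% were called in medial intestine, 12.8% higher and 11.5% lower, and 20.5% in lateral intestine, 11.7% higher and 8.75% lower. The median log2 fold change of the 4 transporters was 1.65 for medial and 1.65 for lateral intestine, and the medians over all tested transcripts were -0.17 and -0.12. SLC5A1 exceeded 97.0% of tested transcripts in its medial log2 fold change, and SLC2A13, the lowest of the 4 there, exceeded 87.0%. The comparisons share the 4 non-intestine libraries.

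**Figure D2:**
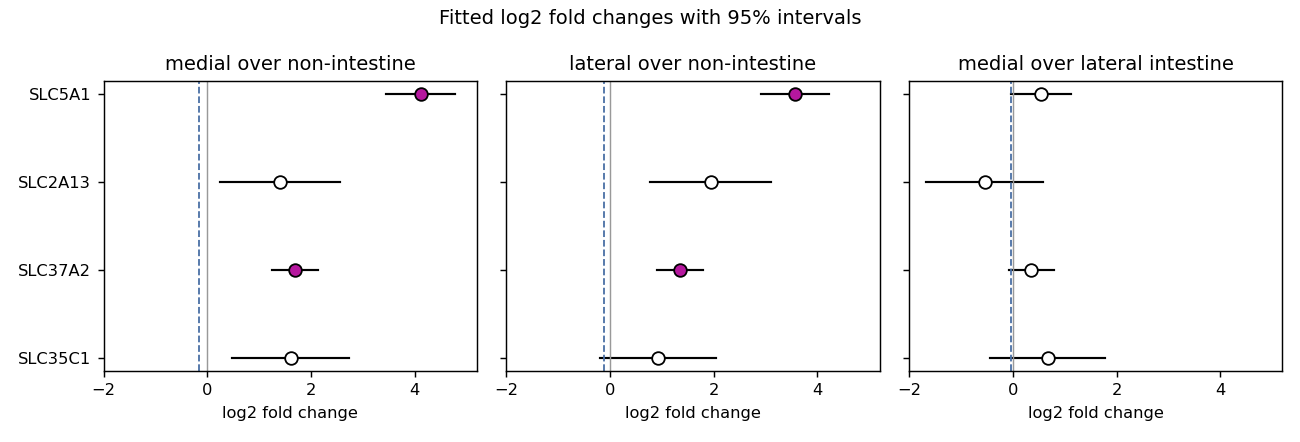
Fitted log2 fold changes of the 4 sugar transporters (points) with 95% intervals (lines) in 3 comparisons, from edgeR's fit to all 12 libraries. Filled points met the FDR and fold criteria, open points did not, and the dashed line marks the median of all 13136 tested transcripts. Filled points are SLC5A1 (4.11 and 3.57) and SLC37A2 (1.70 and 1.35) against non-intestine, and every point of the medial to lateral comparison is open.

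Medial and lateral intestine were compared directly to ask whether the transporters differ along the mediolateral axis. None of the 4 was called here, where the FDR had to lie below 0.01 and the levels to differ more than 1.5-fold. Of all tested transcripts 0.289% were called, 0.129% with the higher level in medial and 0.16% with the higher level in lateral intestine. SLC5A1 had a medial to lateral log2 difference of 0.55 ± 0.26 (SE), with a 95% interval from -0.03 to 1.13 (FDR 0.598, edgeR). Its medial level was higher in 3 of 4 animals, the ratio being 0.852 in animal 2 and 2.37 in animal 4. SLC37A2 differed by 0.35 ± 0.19 (interval -0.08 to 0.78, FDR 0.714, edgeR), with the medial level higher in 4 of 4 animals and ratios from 1.06 to 1.48. SLC35C1 differed by 0.67 ± 0.49 (interval -0.44 to 1.79, FDR 0.870, edgeR), with the medial level higher in 3 of 4 animals. SLC2A13 was the transporter with a negative estimate, -0.54 ± 0.50 (interval -1.68 to 0.59, FDR 0.934, edgeR), and its medial level was higher in 1 of 4 animals. These intervals do not show that the regions are alike, since all but that of SLC37A2 include a 2-fold difference. The smallest unadjusted p of the 4 in edgeR's fit was 0.0526, for SLC5A1. DESeq2 and the likelihood ratio test also called 0 of 4, where they called 169 and 175 of all 13136 tested transcripts.

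Levels were compared between transporters on the deposited TPM scale, which divides by transcript length. With a 3′-end protocol the number of reads does not grow with length in the way TPM assumes, so this order is given beside the CPM values above. In medial intestine, mean TPM was 23.5 ± 1.72 for SLC37A2, 7.26 ± 1.59 for SLC5A1, 6.29 ± 2.62 for SLC35C1 and 3.64 ± 1.36 for SLC2A13 (SD, n = 4 each). SLC37A2 stood clear of the other transporters, while SLC5A1 and SLC35C1 differed by less than the SD of either. In lateral intestine, SLC37A2 had a mean TPM of 19.6 ± 2.3, SLC2A13 of 5.65 ± 1.93, SLC5A1 of 5.31 ± 1.71 and SLC35C1 of 4.13 ± 1.44, the last 3 differing by less than the largest of their SDs. In non-intestine the order was different, with 15.5 ± 2.96 TPM for SLC37A2, 4.46 ± 2.26 for SLC35C1, 2.91 ± 1.63 for SLC2A13 and 0.895 ± 0.077 for SLC5A1. SLC5A1 thus went from the lowest mean outside the intestine to the second place in medial intestine. All 8 intestinal libraries reached 2 TPM for SLC5A1, SLC37A2 and SLC35C1, and 7 of 8 did for SLC2A13.

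The size of each difference moved with the scaling of the libraries. On TMM-normalized CPM, the ratio of mean levels of medial intestine to non-intestine was 17.4 for SLC5A1, 2.64 for SLC2A13, 3.25 for SLC37A2 and 3.05 for SLC35C1. With CPM per total counts these ratios were 10.7, 1.62, 2.03 and 1.86 in the same order of transporters, and with deposited TPM 8.11, 1.25, 1.52 and 1.41. For lateral intestine, SLC5A1 stood at 11.9 on TMM-normalized CPM and 5.93 on TPM, SLC2A13 at 3.85 and 1.94, and SLC37A2 at 2.55 and 1.27. SLC35C1 changed direction in that comparison, from 1.91 on TMM-normalized CPM to 0.927 on TPM. Every ratio was largest under TMM, which gives the non-intestine libraries larger effective sizes.

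**Figure D3:**
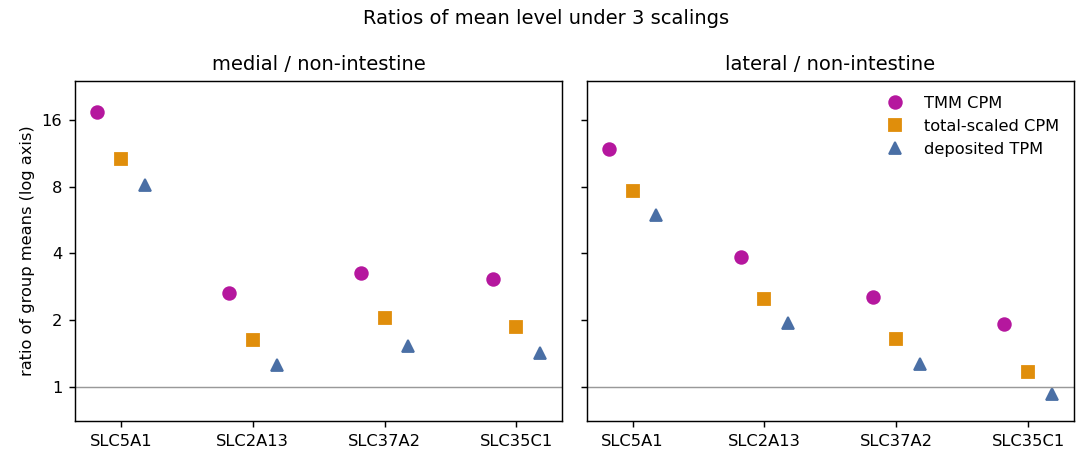
Ratio of mean levels of medial intestine (left) or lateral intestine (right) to non-intestine for each sugar transporter under 3 scalings, on a log axis with a grey line at a ratio of 1. Circles are TMM-normalized CPM, squares CPM per total counts and triangles deposited TPM, each from the means of 4 libraries. SLC5A1 keeps ratios from 5.93 to 17.4, while SLC35C1 in lateral intestine falls from 1.91 to 0.927.

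Scaling also moved the fitted values of transcripts as a whole. Compared with TMM, the median log2 fold change of all tested transcripts moved by -0.18 (medial) and -0.17 (lateral) with edgeR's RLE factors, and by -0.70 and -0.65 with total-count scaling. Relative to that median, SLC5A1 stood 4.28 higher in medial intestine under TMM, RLE and total-count scaling alike. SLC37A2 stood 1.87 higher under TMM and 1.89 higher under total-count scaling in medial intestine, and 1.47 and 1.49 higher in lateral intestine. SLC35C1 stood 1.77 and 1.76 higher in medial and 1.05 and 0.99 higher in lateral intestine. SLC2A13 stood 1.57 and 1.56 higher in medial and 2.06 and 2.08 higher in lateral intestine, the largest lateral value after that of SLC5A1.

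Other carriers of the same SLC families were read from lists that were counted whole. Of 5 further sugar-family carriers on the study's list of enriched solute carriers, which was chosen on these samples, 4 were called higher in medial and 5 in lateral intestine under TMM, and none lower. With total-count scaling 3 and 2 were called. Of all tested transcripts, 12.8% and 11.7% were called higher under TMM, and 7.26% and 7.08% with total-count scaling. The 5 carriers had median log2 fold changes of 1.97 and 1.98. SLC37A3, a relative of SLC37A2, had mean levels of 71.3 ± 20.1 CPM in medial, 57.0 ± 12.1 CPM in lateral and 13.2 ± 3.66 CPM in non-intestine (SD, n = 4), and log2 fold changes of 2.44 and 2.11. SLC35B2, which in humans imports the sulfate donor PAPS into the Golgi, had log2 fold changes of 2.17 and 1.98. The pair of transcripts matched to the glucose transporter SLC2A1 had medial log2 fold changes of 0.85 (dd_4396, below the fold criterion) and 1.65 (dd_8244), and lateral ones of 1.03 and 1.63.

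A second list took 7 carriers of these families from the study's table of reciprocal best matches, a table built without regard to intestinal enrichment. The list held none of the 4 transporters or of the 5 carriers above, although SLC5A1 stands in that table too, paired with SLC5A9. Carriers of the enriched list were thus absent, so the calls below are not independent of enrichment in these libraries. Of the 7 carriers, 5 passed the low-count filter, and SLC5A8 and SLC35F3 did not. None was called higher in either region, and 1 was called lower in medial and none lower in lateral intestine. Over all tested transcripts 12.8% and 11.7% were called higher, and 11.5% and 8.75% lower. Counts this small, out of 5, do not set the list apart from those shares. The medians of the 5 log2 fold changes were -0.84 and 0.20. DESeq2 also called none of the 5 higher, against 12.1% and 11.3% of all tested transcripts. At an unadjusted p under 0.05 in edgeR's fit none was higher in medial and 1, SLC35C2, in lateral intestine (log2 fold change 0.52). The transcript called lower was dd_10218, the reciprocal match of SLC2A13. Its level was 5.53 ± 1.94 CPM in medial, 9.86 ± 3.45 CPM in lateral and 13.4 ± 2.64 CPM in non-intestine (SD, n = 4), and its log2 fold change was -1.28 ± 0.34 in medial (FDR 0.00835, edgeR) and -0.45 ± 0.33 in lateral intestine (FDR 0.356, edgeR). The medial call was lost when the animal was added to the fit as a block. The fitted values of dd_10218 were thus negative in medial and in lateral intestine, while those of SLC2A13 were positive. The lateral sign of dd_10218 was not settled, since its interval ran from -1.19 to 0.30 and its lateral level was higher in 1 of 4 animals. The sequences of these transcripts were not compared, and whether the mapping split reads between them was not tested. SLC5A7, the choline transporter of cholinergic neurons, had 13 counts in all medial, 9 in all lateral and 558 in all non-intestine libraries, and was not called (FDR 0.0414 and 0.0287, edgeR). Its median was 0 CPM in medial and in lateral intestine, with maxima of 0.577 and 0.333 CPM.

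Enzymes that handle sugars inside the cell were counted in the same way. In glycolysis and gluconeogenesis, 1 of 7 transcripts was called higher in each region and none lower under TMM, with medians of 0.02 and 0.24. Over all tested transcripts 12.8% and 11.7% were called higher, a share near that of 1 in 7. That transcript was FBP1, which catalyses a committed step of gluconeogenesis, at 118 ± 29.7 CPM in medial, 136 ± 18.8 CPM in lateral and 50.6 ± 6.63 CPM in non-intestine (SD, n = 4), with log2 fold changes of 1.22 and 1.43. With total-count scaling FBP1 was not called, and 3 transcripts of the list were called lower in medial and 2 in lateral intestine, where 21.7% and 16.8% of all tested transcripts were called lower. Among 9 enzymes of glycogen, polyol, galactose and nucleotide sugar metabolism, 1 was called higher in medial and 2 in lateral intestine, and none lower, with medians of 0.32 and 0.32. With total-count scaling 1 was called higher in each region, and 2 were called lower in medial and 1 in lateral intestine.

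SORD, the sorbitol dehydrogenase that yields fructose, had the largest positive log2 fold changes of these enzymes. Its level was 340 ± 32.7 CPM in medial, 320 ± 60.5 CPM in lateral and 53.1 ± 6.09 CPM in non-intestine (SD, n = 4), and the log2 fold changes were 2.68 ± 0.17 and 2.59 ± 0.17 (SE; FDR 4.35e-08 and 6.55e-08, edgeR). GBE1, the glycogen branching enzyme, was called in lateral but not in medial intestine under TMM, and in neither with RLE factors, with log2 fold changes of 0.83 in medial and 1.01 in lateral intestine, and the difference between regions was not called (FDR 0.919, edgeR). FUT6, a fucosyltransferase that uses the GDP-fucose carried by SLC35C1, had no counts in the 4 medial libraries, 37 in the lateral and 488 in the non-intestine libraries, and was not called in either region (FDR 0.0126 and 0.204, edgeR). The lateral libraries had a median of 0 CPM and a maximum of 1.69 CPM.

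Lysosomal glycosidases release sugars from glycoconjugates and glycogen inside the cell. The 6 glycosidases counted here came from the study's enriched lists, again chosen on these samples. All 6 were called higher in medial and in lateral intestine under TMM, and 5 of 6 in each with total-count scaling. Their median log2 fold changes were 2.79 and 2.63. Of all tested transcripts, 12.8% and 11.7% were called higher under TMM, and 7.26% and 7.08% with total-count scaling. GAA (dd_1062), the acid alpha-glucosidase that degrades glycogen in lysosomes, was at 568 ± 47.6 CPM in medial, 413 ± 62.2 CPM in lateral and 8.27 ± 1.83 CPM in non-intestine (SD, n = 4). Another transcript of the list matched to GAA, dd_4668, had lower means of 21.8, 15.6 and 5.59 CPM in the same order. Its log2 fold changes were 1.96 and 1.48. FUCA2, a fucosidase, had log2 fold changes of 3.05 and 3.28, and whether it acts in the lysosome was not tested.

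**Figure D4:**
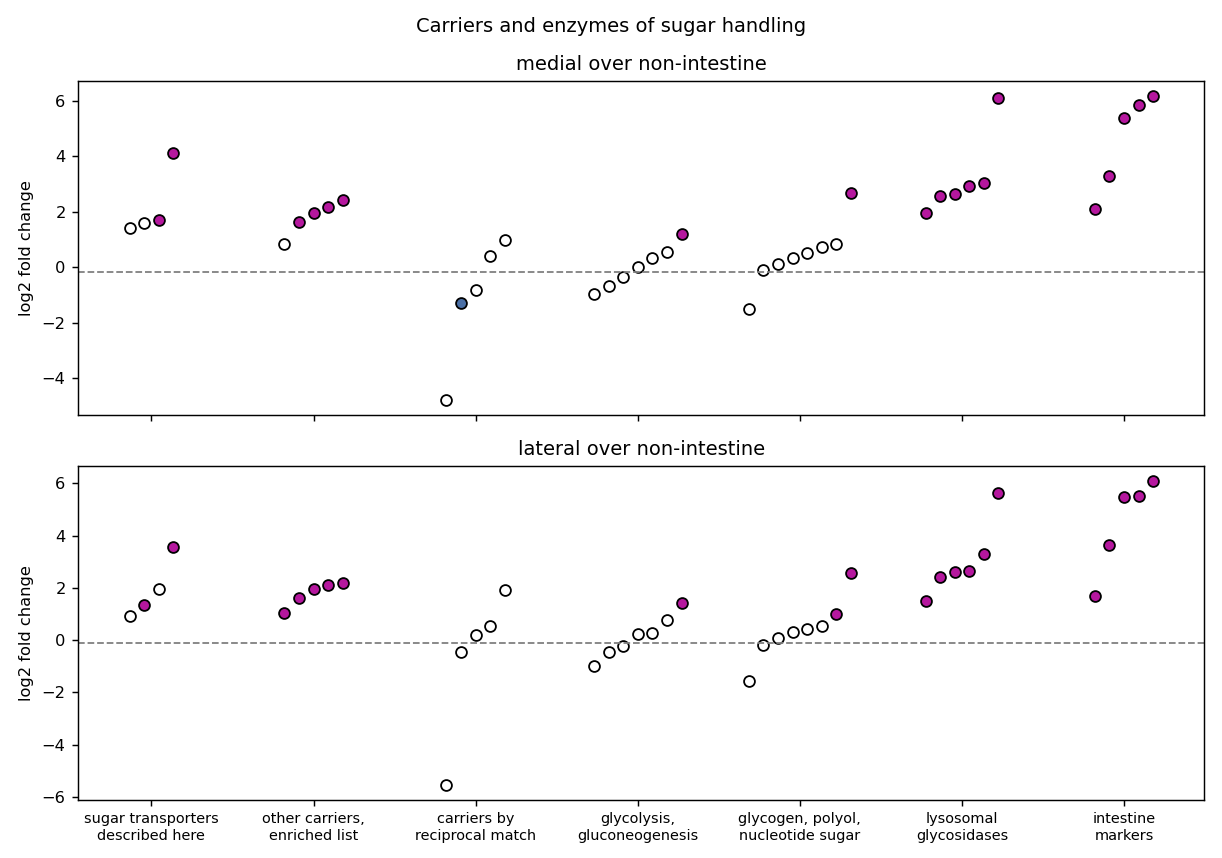
Log2 fold changes over non-intestine of the 4 sugar transporters, of other carriers and enzymes of sugar handling, and of the 5 intestine markers, sorted within each list. Each point is a transcript, purple points were called higher, blue lower and open points neither, and the dashed line is the median of all tested transcripts (-0.17 medial, -0.12 lateral). FUT6, with no medial counts, is not drawn. Carriers and glycosidases of the enriched lists lie mostly between 1 and 4, whereas the glycolytic enzymes scatter around 0. Carriers chosen by reciprocal match range from -4.79 to 0.98 in medial and from -5.53 to 1.94 in lateral intestine. The enriched lists were chosen on these samples, and the reciprocal-match list holds none of their carriers. The contrast between these lists thus follows in part from the choice.

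Markers of other cell types changed along with these comparisons, and their part in the transporter values was not tested. Of the 5 cilia markers, 2 were called lower in medial and 1 in lateral intestine, and their sum was 42.2 to 67.9 CPM in non-intestine, 0.696 to 7.28 CPM in medial and 3.38 to 10.9 CPM in lateral intestine. Of 3 neural markers, PCSK2 was called lower in both regions, and GAD1 (log2 fold changes 0.55 and 0.37) was called in neither. Of the stem cell markers, PIWIL1 and PCNA were both called lower in medial and neither in lateral intestine, and they summed to 262 to 327 CPM in non-intestine, 110 to 164 CPM in medial and 141 to 225 CPM in lateral intestine. Their lateral log2 fold changes were also negative, at -0.73 and -1.17, and neither marker was called between medial and lateral intestine. COL4A5, the marker of muscle and extracellular matrix, was called in neither region. Of the markers of protonephridia, the planarian excretory organs, NPHS1 did not pass the filter, with no counts in medial, 40 in lateral and 92 in non-intestine libraries. OSR2 was at 2.02 to 6.45 CPM in medial, 0 to 2.46 CPM in lateral and 0.432 to 2.02 CPM in non-intestine and was not called (log2 fold changes 1.77 and 0.08).

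The transcripts most like each transporter over the 12 libraries were found by Pearson's correlation of log2(CPM + 1), given as a description because the libraries share 3 tissues and 4 animals. For SLC5A1 they were dd_2567 (annotated SOAT1, a sterol acyltransferase), dd_314 and dd_131, with r from 0.991 to 0.992. For SLC37A2 they were dd_1158 (CHMP5, an endosomal sorting protein) and dd_1493 (ALDH7A1, an aldehyde dehydrogenase), with r of 0.986 and 0.984. SLC35C1 was closest to dd_2397, dd_8172 and dd_2176 (PDCD4; r 0.928 to 0.955), and SLC2A13 to dd_8301, dd_10667 (PPAT, an enzyme of purine synthesis) and dd_6091 (r 0.907 to 0.931). The neighbours of SLC5A1 had mean levels of 135 to 3995 CPM in medial intestine and 5.09 to 24.2 CPM in non-intestine.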

How the data were processed

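The authors trimmed the reads with BBDuk and mapped them with Bowtie2 2.3.1 to the dd_Smed_v6 transcriptome, and deposited the counts per transcript from SAMtools 1.3 without normalization. Strand-specific counting is not given in the sources used here. The deposited CPM are a signal scaled by the authors to TMM-adjusted library sizes, the deposited RPKM divide by length and library total, and the deposited TPM divide by length and scale to a common total. Refitted TMM CPM differed from the deposited CPM by at most 1.97e-08 of their value. Columns of the authors' own comparisons (log2 fold changes, log2 mean CPM, likelihood ratios, p-values and FDR) were not used.

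Counts were fitted in R 4.3.3 with edgeR 4.0.16 (TMM, all 12 libraries, a term for tissue) and tested with the quasi-likelihood F test, which has no direction. The low-count filter and the thresholds against non-intestine follow the study, which used the likelihood ratio test of edgeR 3.8.6 and also asked for a minimum TPM, not applied to the calls here. The study drew its mediolateral ratio of 1.5 from both fold changes without a direct test, so the direct test and its FDR threshold are choices made here. Approximate SEs are the log2 fold change over the square root of F, and 95% intervals take 9 residual degrees of freedom. The common biological coefficient of variation was 0.626. Counting error limits the precision of low transcripts, and no molecular identifiers are mentioned. No pair of libraries agreed within sampling noise (chi-square per transcript 45.8 or more). On simulated counts for medial intestine against non-intestine (13136 transcripts), 29 of 100 changes of 2 and 44 of 100 of 4 on the log2 scale were called, with 0 of 12936 unchanged ones. Apart from these changes, the simulated tissues shared 1 mean level per transcript. The changed transcripts were drawn at random and included rises and falls. These rates therefore do not give the power or false calls of the tests on the transporters.

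Libraries with the same number come from the same animal, per the study's design. Deviations of such libraries from their tissue means correlated, across transcripts, with r from -0.00271 to 0.247. The animal block was an alternative, as were RLE factors, DESeq2 1.42.0, the likelihood ratio test, other filters (1 count in any library, or 1 CPM in 8 of 12), fits to the tissues of 1 comparison, each library or animal left out, and total-count scaling, which was added after seeing the data. The transporters and lists were chosen with earlier results of these data known. Named transcripts are the 4 transporters, the members of the lists and, for each transporter, the 3 transcripts with the most similar levels, except some items that are not reported here. No sequences were used.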

Additional observations from a re-analysis of the deposited data

Results flagged for a closer look

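SLC35C1 in non-intestine had a library that stood apart. The library of animal 4 was at 0.910 CPM, from 27 counts, and those of the other animals at 3.74 to 4.30 CPM. Its gap to the nearest library was 0.834 of the range of the group, above Dixon's 95% critical value for 4 samples. Chance alone gives such a gap in about 5% of groups, and 12 groups were examined.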

How the results depend on the processing

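In 24 alternatives per result, no transporter changed the direction of its fitted log2 fold change. Deposited TPM, which were not fitted, gave SLC35C1 a ratio of lateral intestine to non-intestine of 0.927, the opposite direction. SLC5A1 in both regions and SLC37A2 in medial intestine were called in all 24, and SLC37A2 in lateral intestine in 23. DESeq2 called SLC2A13 in lateral intestine (1.78), and the likelihood ratio test called it (1.94) and SLC35C1 in medial intestine (1.61). With total-count scaling SLC37A2 in lateral intestine was at 0.72 and 1 transporter was called there. With single libraries or animals left out, SLC2A13 in lateral intestine ranged from 1.46 to 2.42 and was called in 2 of 16 cases. Transcripts called in the same cases numbered 2001 to 3344 for medial intestine against non-intestine (3187 with all libraries), 1635 to 2982 for lateral (2692), with the lowest numbers on leaving out animal 1 (2001 and 1669) or animal 3 (2025 and 1635), and 12 to 34 between the intestinal regions, where the main value was 38, DESeq2 gave 169 and the likelihood ratio test 175. Calls higher in medial intestine made up 52.6% of all calls under TMM, 41.7% with DESeq2 and 25.1% with total-count scaling, and in lateral intestine 57.3%, 46.4% and 29.6%. The replicate block, which pairs the libraries of an animal, changed no call of a transporter (SLC5A1 4.12 in medial intestine). The causes of these changes were not tested. The biological coefficients of variation in the fit were 0.498 for SLC2A13 and 0.49 for SLC35C1, against 0.284 for SLC5A1 and 0.226 for SLC37A2.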
